A study of Homo sapiens with 48 samples.

Results

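In 92-1 cells, 142 genes were lower after 4 h of FHT-1015 and higher after 24 h, each time against DMSO. FHT-1015 inhibits SMARCA4 and SMARCA2, the alternative catalytic ATPases of BAF chromatin remodelling complexes. The genes were chosen by that pattern in counts per 1000000 reads in genes (CPM). A member had a log2 ratio of the mean drug CPM to the mean DMSO CPM, each with 0.5 CPM added, of -0.58 or less at 4 h and of 0.58 or more at 24 h. Every drug replicate also lay outside the range of the DMSO replicates at both times, and the mean over the 12 libraries was at least 2 CPM. Of 58870 genes listed, 12258 reached that mean, and the 142 members were 1.16% of them.

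Polyadenylated RNA was sequenced from the uveal melanoma lines 92-1, MEL202 and MP41, all with the genotype label WT. Each line received FHT-1015 or DMSO for 4 h or 24 h, and 92-1 also received IDE196, a protein kinase C inhibitor, or its own DMSO for 4 h or 24 h. Each of the 16 groups held 3 samples labelled as biological replicates (numbered 1 to 3, and 4 to 6 for the DMSO samples beside IDE196), and the labels give no dose. The 12 FHT-1015 and DMSO libraries of 92-1 chose the members, so their values are given as a description without a test, and tests were made only in the other 36 libraries.

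BAF complexes use the energy of ATP to move or evict nucleosomes, which keeps enhancers and promoters open to transcription factors. Uveal melanoma arises from the melanocytes of the eye, and its lines are maintained by the lineage factors SOX10 and MITF. Its usual driver mutations lie in G protein alpha subunits that signal through protein kinase C, the target of IDE196.

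The libraries held 11394088 to 32317711 reads in genes. In MEL202, the second replicate of the FHT-1015 group at 4 h stood apart: 17592 genes had a read in it, and 21106 or more in every other MEL202 library, so the main counts of members in MEL202 are also given without it. SOX10 lay at 383 to 449 CPM in DMSO and at 11.7 to 17.9 CPM with FHT-1015 in 92-1 at 4 h. MITF was at 351 to 440 CPM in DMSO and 123 to 138 CPM with the drug in 92-1 at 24 h, and the drug's targets SMARCA4 and SMARCA2 were at 241 to 284 against 324 to 344 CPM and at 41.8 to 47.8 against 70.6 to 82 CPM. At least 6 of 7 melanocyte markers were at 2 CPM or more in each experiment, with a summed level of 2962 to 21290 CPM. The summed blood and endothelial markers stayed at or below 4.49 CPM in every library and fibroblast markers at or below 43.6 CPM. Epithelial markers summed to 2.26 to 23.1 CPM in the IDE196 experiment and to 5.08 CPM or less elsewhere, and their part in the results was not tested. In bulk RNA, fewer cells of a type and less RNA per cell cannot be told apart.

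In 92-1 the median log2 ratio of the 142 genes was -0.82 at 4 h (range -2.31 to -0.58) and 1.09 at 24 h (range 0.58 to 3.10). The limits and the non-overlap at 4 h alone were met by 9.67% of the 12258 genes, and those at 24 h alone by 19.5%. At least a 2-fold fall was seen for 39 members, at least a 2-fold rise for 79, and both for 21. The rise was larger than the fall in 96 members. In 131 members all 3 drug libraries of 24 h lay above all 3 DMSO libraries of 4 h, which the choice of members largely fixes, and in the other 11 the ranges overlapped. In DMSO the log2 ratio of 24 h to 4 h had a median of -0.04 and ran from -1.33 to 0.61. Its quartiles were -0.22 and 0.11, against -0.08 and 0.12 for the 12258 genes. The opposite order, higher at 4 h and lower at 24 h by the same limits, was met by 76 genes, or 0.62%.

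**Figure D1:**
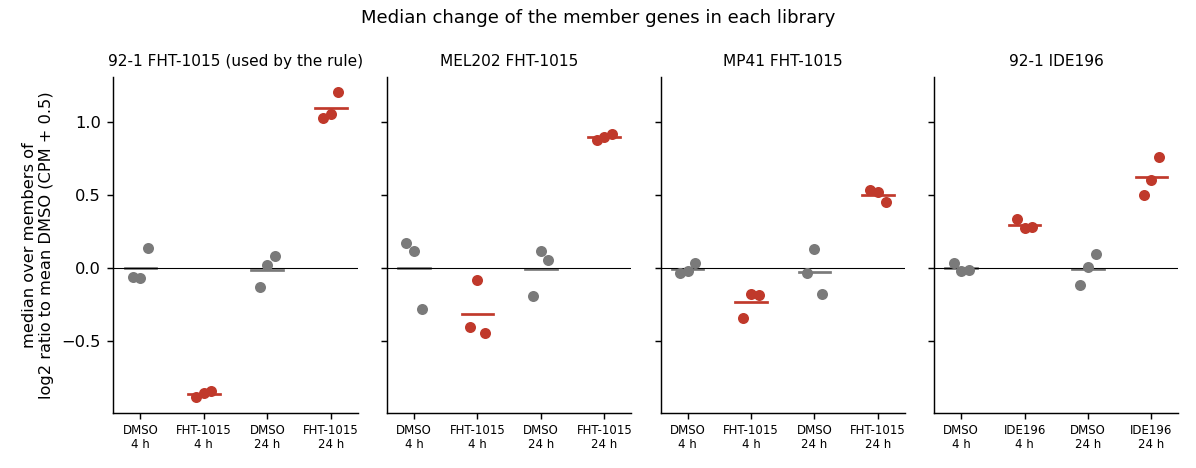
Median over the member genes of the log2 ratio of each library to the mean DMSO of its own time (vertical axis, CPM with 0.5 added), by group (horizontal axis), with 1 point per library and a bar at the mean of 3 libraries; grey is DMSO and red is drug. With FHT-1015 the 92-1 libraries, which chose the genes, run from -0.89 at 4 h to 1.20 at 24 h, MEL202 and MP41 are below 0 at 4 h and above 0 at 24 h, and IDE196 is above 0 at both times.

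The plot of library medians shows the same order of times in each FHT-1015 experiment. The 92-1 libraries had medians of -0.890, -0.861 and -0.844 at 4 h and of 1.02, 1.06 and 1.20 at 24 h. In MEL202 they were -0.410, -0.0876 and -0.449 at 4 h, where the highest was replicate 2, and 0.875, 0.899 and 0.918 at 24 h. MP41 gave -0.343, -0.178 and -0.185 at 4 h and 0.530, 0.518 and 0.448 at 24 h. With IDE196 the libraries of 92-1 gave 0.333, 0.271 and 0.282 at 4 h and 0.501, 0.602 and 0.758 at 24 h, so the medians with that drug were above 0 at both times.

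At the edge of the choice, ATF7IP and FMNL1 were just inside the 4 h limit, both at -0.58. EDNRA (-0.576), KCTD11 (-0.573) and LRP1 (-0.569) were just outside it. At 24 h, ERBB2 (0.584), GSDME (0.585) and AC015922.2 (0.594) were just inside, and AL390719.1 (0.573), RHBDF1 (0.571) and ARHGEF17 (0.565) just outside.

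Genes of the Hedgehog and Hippo pathways gave 4 members among the 21 genes of that list at 2 CPM or more (19%, against 1.16% of all genes at that level): GLI1, GLI3, GAS1 and CCN2. In Hedgehog signalling a secreted ligand, bound with the help of the co-receptor GAS1, releases the GLI factors, of which GLI3 often acts as a repressor and GLI1 is both an activator and a target gene. GLI1 was at 5.21, 4.15 and 4.22 CPM in DMSO and 2.17, 2.26 and 2.04 CPM with FHT-1015 at 4 h. At 24 h it was at 2.38, 2.38 and 2.50 CPM in DMSO and 13.4, 10.8 and 9.97 CPM with the drug, a log2 ratio of 2.02. The DMSO level of GLI1 was lower at 24 h than at 4 h without overlap, yet the drug libraries of 24 h lay above both. GLI3 was at 20.9, 19.3 and 22.4 CPM in DMSO and 10.5, 12.4 and 13.6 CPM with the drug at 4 h, and at 15.1, 14.7 and 21.4 against 68.0, 55.3 and 60.8 CPM at 24 h. GAS1 was at 8.48, 14.5 and 13.8 against 3.33, 4.97 and 4.13 CPM at 4 h and 8.20, 11.2 and 13.2 against 19.6, 17.5 and 16.8 CPM at 24 h. For both genes the late drug values exceeded every DMSO library of either time, which the choice largely fixes.

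CCN2 encodes a matricellular growth factor and is a standard target gene of YAP and TEAD, the transcription factors at the end of the Hippo pathway. It was at 4.51, 4.71 and 2.71 CPM in DMSO and 0.875, 1.69 and 0.432 CPM with FHT-1015 at 4 h, and at 2.12, 0.939 and 2.44 against 5.38, 4.50 and 3.73 CPM at 24 h. Its 24 h drug libraries overlapped the DMSO range of 4 h, so CCN2 was among the 11 members with such an overlap. The DMSO level of CCN2 was lower at 24 h than at 4 h without overlap (log2 ratio -0.94). Its mean with the drug at 24 h was at a log2 ratio of 0.17 to DMSO at 4 h. The part of the lower DMSO level in the late ratio was not tested. The gene lies on the minus strand of chromosome 6 at 131948176 to 131951373 (GRCh38). Its promoter is shown because CCN2 is the Hippo target among the members and its late effect differed between MEL202 and MP41, as given below. The 250 bases before the RefSeq start, chr6:131951373-131951622 on the minus strand of GRCh38.p14, are printed 5′ to 3′ with the TEAD motif ACATTCC (here on the other strand) and the TATA motif TATAAA in capitals.
CCN2: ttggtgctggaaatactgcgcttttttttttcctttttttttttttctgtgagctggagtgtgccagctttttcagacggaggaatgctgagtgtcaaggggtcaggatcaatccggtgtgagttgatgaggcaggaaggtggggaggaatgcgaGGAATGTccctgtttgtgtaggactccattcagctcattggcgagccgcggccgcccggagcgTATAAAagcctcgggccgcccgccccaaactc
The TEAD motif began 95 bases and the TATA motif 32 bases before the start. Only exact matches of these motifs are capitalised, and near matches and other motifs in this window are not marked. Searched on both strands over 250 bases before to 50 after the start, ACATTCC was in 2% and TATAAA in 4.91% of the 9491 promoters matched among the 12258 genes. A match of letters is a description and not a bound site.

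Genes of ion transport among the members included the channels KCNJ2 and SCN9A, the pump subunit ATP1B1 and CNNM2. The ion channel list gave 3 members among 60 genes at 2 CPM or more (5%, against 1.16% of all). Solute carriers and ABC transporters gave 0 among 224. KCNJ2, an inward rectifier potassium channel, was at 1.72, 2.15 and 3.55 CPM in DMSO and 0.4999, 0.577 and 0.432 CPM with the drug at 4 h, and at 1.01, 1.63 and 2.99 against 9.18, 14.4 and 17.4 CPM at 24 h. SCN9A, a voltage-gated sodium channel, was at 2.31, 1.43 and 2.23 against 1.17, 0.799 and 0.493 CPM at 4 h and 1.76, 1.94 and 2.14 against 11.46, 9.01 and 12.4 CPM at 24 h. Both channels were thus low in DMSO and reached 9 CPM or more in every late drug library. ATP1B1, the beta subunit of the sodium-potassium pump, was at 5.58, 7.06 and 6.69 against 1.75, 1.78 and 1.73 CPM at 4 h and 6.88, 8.08 and 8.97 against 13.0, 22.3 and 32.3 CPM at 24 h. CNNM2, a magnesium transport protein, was at 41.1, 54.1 and 61.2 against 21.5, 22.9 and 20.3 CPM at 4 h and 26.6, 30.2 and 47.8 against 63.4, 81.6 and 108 CPM at 24 h. The late drug libraries of CNNM2 and ATP1B1 spread widely. All stood above the DMSO libraries of either time, which the choice largely fixes.

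ADRA2A, the alpha-2A adrenergic receptor, had the highest mean CPM of all members, without regard to gene length. It was at 93.7, 133 and 137 CPM in DMSO and 63.3, 80.8 and 80.8 CPM with FHT-1015 at 4 h. At 24 h it was at 108, 129 and 153 CPM in DMSO and 481, 443 and 486 CPM with the drug. The early fall was modest (-0.69 on the log2 scale) and the late rise large (1.85). It lies on the plus strand of chromosome 10 at 111077163 to 111080907 (GRCh38). Its promoter is shown because ADRA2A followed the whole pattern in all 3 lines and was lower at 24 h with IDE196, as given below. The 250 bases before the RefSeq start, chr10:111076779-111077028 on the plus strand of GRCh38.p14, follow with the E-box CACGTG and the TATA motif TATAAA in capitals.
ADRA2A: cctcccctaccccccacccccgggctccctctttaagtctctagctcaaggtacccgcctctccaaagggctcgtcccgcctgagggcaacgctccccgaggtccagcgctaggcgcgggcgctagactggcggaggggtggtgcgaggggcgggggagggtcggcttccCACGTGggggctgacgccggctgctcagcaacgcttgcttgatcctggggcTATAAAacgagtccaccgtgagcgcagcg
The E-box began 80 bases and the TATA motif 29 bases before the start. CACGTG was in 10.5% of the 9491 matched promoters, and other motifs in this window are not marked.

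Guanine nucleotide exchange factors and actin regulators among the members included ARHGEF3, PLEKHG5, PLEKHG2, ARHGEF10L and the effector protein CDC42EP3. ARHGEF3 was at 11.3, 12.9 and 11.7 against 5.17, 6.304 and 6.11 CPM at 4 h and 12.7, 12.6 and 13.4 against 33.1, 31.9 and 37.7 CPM at 24 h. PLEKHG5 was at 3.22, 3.07 and 3.49 against 1.5, 1.38 and 1.23 CPM at 4 h and 2.78, 4.13 and 3.97 against 8.97, 8.51 and 10.2 CPM at 24 h. Both had tight replicates, and the choice of members fixed that drug and DMSO did not overlap at either time. PLEKHG2 had log2 ratios of -0.92 and 0.76, ARHGEF10L of -0.84 and 0.94, and CDC42EP3 of -0.96 and 0.69 at 4 h and 24 h. STARD13, a GTPase-activating protein, was at 6.44, 6.25 and 7.59 against 2.92, 2.75 and 2.28 CPM at 4 h and 5.95, 6.76 and 7.93 against 17.1, 19.4 and 25.1 CPM at 24 h. FMNL1, a formin that builds actin filaments, had ratios of -0.58 and 1.40, and CORO2A, an actin-binding coronin, of -0.79 and 1.24.

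Members of cell junctions, guidance and the cell surface included CGN, whose smaller change was second only to that of GEM. CGN encodes cingulin, a cytoplasmic protein of tight junctions, and was at 4.24, 5.17 and 6.33 CPM in DMSO and 0.750, 0.710 and 0.925 CPM with the drug at 4 h. At 24 h CGN was at 5.64, 5.51 and 6.53 against 18.6, 21.4 and 23.4 CPM, so that it went from under 1 CPM to 18 CPM or more between the times. NTN4, a secreted netrin of basement membranes, was at 0.752, 1.02 and 1.81 against 0.250, 0.311 and 0.247 CPM at 4 h and 0.882, 1.19 and 1.71 against 9.66, 9.26 and 9.36 CPM at 24 h. The transmembrane semaphorin SEMA6B was at 6.55, 7.58 and 9.52 against 2.96, 4.71 and 5.30 CPM at 4 h and 7.89, 9.64 and 11.2 against 40.3, 43.0 and 37.6 CPM at 24 h. SEMA4B, of the same family, had ratios of -0.66 and 0.73. These 3 were the members among 51 axon guidance genes at 2 CPM or more (5.88%, against 1.16% of all). Extracellular matrix and integrin genes gave 0 among 68, and cadherins and protocadherins 0 among 30. TPBG (5T4), a membrane glycoprotein of trophoblast and tumour cells, was at 12.1, 13.3 and 16.1 against 9.04, 8.30 and 8.70 CPM at 4 h and 10.1, 13.4 and 11.96 against 24.1, 29.5 and 28.5 CPM at 24 h. MYOF, a ferlin of membrane repair, had ratios of -0.94 and 1.27, and ADAM19, a membrane metalloprotease, of -1.27 and 1.59.

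Among signalling genes, GEM showed the largest combined swing of the set. GEM is a small RAS-like GTPase that inhibits voltage-gated calcium channels. It was at 4.57, 5.63 and 4.94 CPM in DMSO and 0.750, 0.622 and 0.493 CPM with the drug at 4 h, and at 3.66, 4.20 and 4.88 against 13.8, 17.8 and 30.4 CPM at 24 h. The log2 ratios of -2.31 and 2.16 were both beyond 4-fold. DOK5, an adaptor of receptor tyrosine kinases, had the largest late rise: it was at 7.41, 6.86 and 10.4 against 4.87, 4.00 and 6.23 CPM at 4 h and 7.19, 10.8 and 12.3 against 85.2, 91.6 and 94.2 CPM at 24 h. LRIG1, which restrains ERBB receptors, had ratios of -1.11 and 1.48, and ERBB2 itself of -0.86 and 0.58. The adaptor SHF had -1.17 and 1.63, and the kinase NUAK1 -0.66 and 1.46. NDRG1, a stress-responsive and hypoxia-responsive gene, was at 15.4, 13.5 and 15.9 against 9.54, 7.10 and 9.44 CPM at 4 h and 12.8, 13.0 and 13.6 against 45.7, 46.3 and 48.8 CPM at 24 h. BCL2L11 (BIM), which promotes apoptosis, was at 9.94, 10.9 and 11.4 against 7.37, 7.55 and 5.37 CPM at 4 h and 9.26, 8.20 and 9.28 against 25.4, 34.3 and 39.5 CPM at 24 h. IER3, an immediate early gene, had ratios of -1.38 and 1.00, and GSDME, a gasdermin that forms membrane pores, of -0.65 and 0.58. APOLD1, an early response gene of endothelium, was at 3.33, 2.87 and 3.37 against 1.42, 1.06 and 1.23 CPM at 4 h and 3.83, 2.94 and 5.13 against 9.66, 9.01 and 7.04 CPM at 24 h.

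Transcription and chromatin genes formed a further group. SALL2, a zinc finger transcription factor, was at 1.83, 1.38 and 2.23 against 0.417, 0.3995 and 0.432 CPM at 4 h and 3.00, 3.44 and 2.44 against 19.1, 16.01 and 16.46 CPM at 24 h. It was close to 0 in the early drug libraries and at 16 CPM or more in the late ones. H3C6, a replication-type histone H3 gene, had ratios of -0.61 and 2.38. Reads that match several near-identical H3 copies may be held apart as multimapping. Among 22 histone genes at 2 CPM or more, 13 met the 24 h limit without overlap, against 19.5% of all genes. Only H3C6 of them was a member. ATF7IP, a cofactor of the histone methyltransferase SETDB1, had -0.58 and 0.63. Genes with ZNF, ZSCAN, ZKSCAN or ZFP symbols gave 7 members among 450 at 2 CPM or more (1.56%, near the 1.16% of all genes). Of these ZKSCAN8 was at 109, 98.9 and 108 against 78.9, 75.7 and 55.5 CPM at 4 h and 88.9, 102 and 96.7 against 147, 159.7 and 169.6 CPM at 24 h, and ZNF219, ZNF772 and ZNF48 had late ratios of 1.43, 0.99 and 0.80.

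Other named members covered diverse functions. HSPB7, a small heat shock protein of muscle, was at 44.0, 61.5 and 88.1 against 15.9, 26.2 and 42.4 CPM at 4 h and 32.5, 48.4 and 57.7 against 99.2, 137 and 176 CPM at 24 h. LRATD2 was at 8.75, 7.99 and 7.77 against 2.42, 2.22 and 1.54 CPM at 4 h and 8.60, 8.89 and 8.05 against 26.02, 23.8 and 35.2 CPM at 24 h. GPRASP2, which sorts G protein-coupled receptors, had ratios of -1.23 and 1.45. Reads that also lie in the readthrough gene ARMCX5-GPRASP2 may be held as ambiguous, outside its count. PGPEP1, a pyroglutamyl peptidase, had -1.78 and 1.10, CCDC113, a cilium protein, -1.05 and 1.15, and SAMD5 -1.10 and 1.38. DNAJC6 (auxilin), which uncoats clathrin vesicles, had -0.95 and 1.81, FAXDC2 -0.85 and 1.47, C1orf115 -0.93 and 0.85, and the lincRNA AC015922.2 -0.95 and 0.59. In all, 41 members were in at least 1 of the 26 lists.

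**Figure D2:**
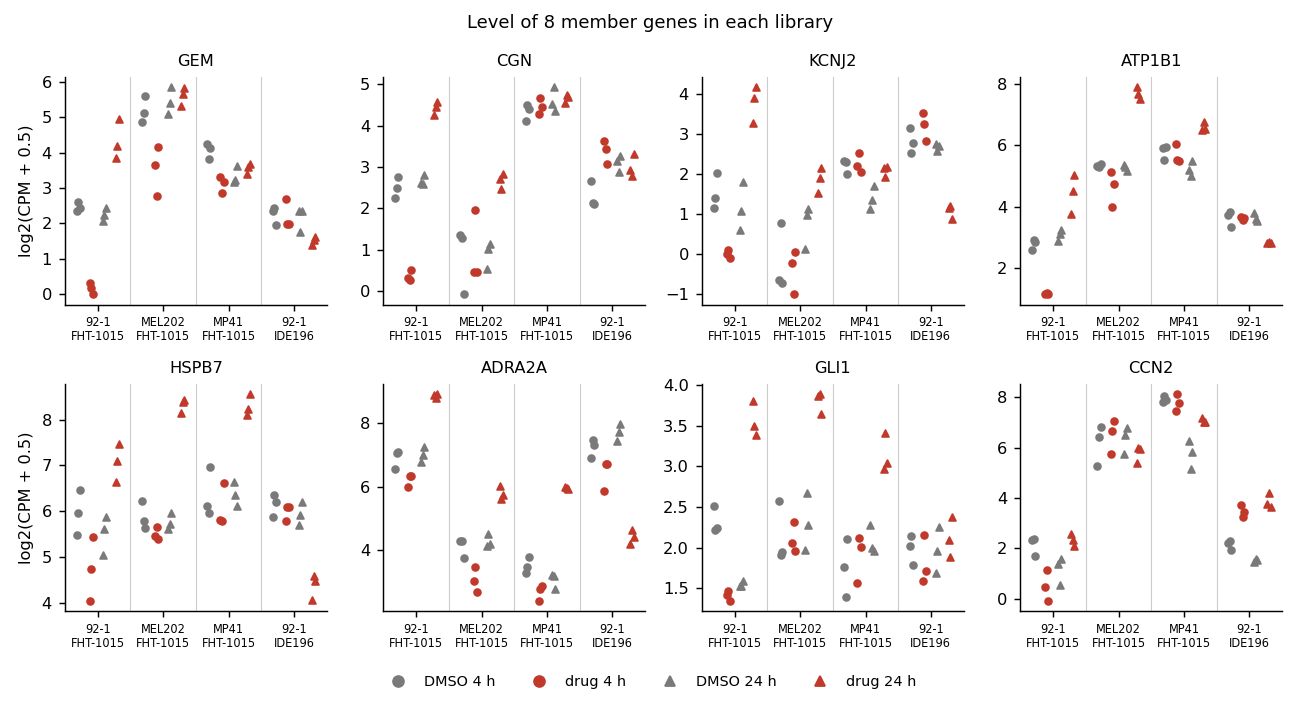
Level of 8 member genes in each library, as log2 of CPM plus 0.5 (vertical axis, scaled to each gene), by experiment (horizontal axis); circles are 4 h, triangles 24 h, grey DMSO and red drug. KCNJ2, ATP1B1, HSPB7 and ADRA2A rise at 24 h with FHT-1015 in 92-1 and are lower than DMSO at 24 h with IDE196, while CCN2 is higher than DMSO with IDE196 at both times.

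The first independent question was whether the early fall recurred in the other lines. At 4 h in MEL202, 121 of the 142 genes had a log2 fold change below 0 (85.2%, against 52.7% of all 15913 genes tested), with a median of -0.36. The edgeR quasi-likelihood test called 4 members lower, where 0.522% of all genes were called lower, and no member higher, where 0.157% were. In a fit of the 4 h libraries alone 0 were called lower, as for all genes (0%), and 19 were lower at an unadjusted p under 0.05, where 2.45% of all genes were. With all 12 libraries, at an unadjusted p under 0.05 there were 31 members lower, where 4.88% of all genes were, and 2 higher, where 3.7% were. DESeq2 called 14 lower, where it called 1.53% of all genes lower. Without FHT-1015 4 h replicate 2, which stood apart, 131 members were below 0 (92.3%, against 52.9% of all genes), and at an unadjusted p under 0.05 the members lower were 55, where 6.33% of all genes were, and 1 was higher, where 3.75% were. In MP41 at 4 h, 110 of 135 tested members were below 0 (81.5%, against 48.6% of all 15543 genes tested), with a median of -0.24. There edgeR called 1 member lower (0.154% of all genes) and 0 higher (0.0708% of all genes), and in a fit of the 4 h libraries alone it called 16 of 132 lower, where 1.73% of all genes were. At an unadjusted p under 0.05, 36 were lower, where 3.82% of all genes were, and 0 higher, where 1.96% were. DESeq2 called 10 lower, where it called 0.785% of all genes lower. Both medians were nearer 0 than that of 92-1, whose own values chose the genes, and few members passed the test. The biological coefficient of variation was 0.294 in MEL202 and 0.217 in MP41, against 0.112 in the IDE196 experiment.

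The early calls rested on few libraries. Those of MEL202 at 4 h numbered 7 without FHT-1015 4 h replicate 2 (0.685% of all genes), of which 3 were among the 4, and the median was then -0.52. They numbered 1 without DMSO 4 h replicate 1, FHT-1015 4 h replicate 1 or FHT-1015 4 h replicate 3, and 2 without DMSO 24 h replicate 2 or 3 or FHT-1015 24 h replicate 2 or 3. For these fits with 1 or 2 calls the shares of all genes are not given here. The single MP41 call became 9 without DMSO 24 h replicate 2 (0.667% of all genes) and 7 without DMSO 24 h replicate 3 (0.518%). It was 0 without any of the 6 libraries of 4 h or without FHT-1015 24 h replicate 3.

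The 5 genes called early were TPBG, APOLD1, C1orf115, GEM and NUAK1. In MEL202 TPBG was at 26.8, 26.7 and 29.6 CPM in DMSO and 13.3, 12.6 and 13.9 CPM with the drug at 4 h (log2 fold change -1.13 ± 0.18 (SE), adjusted p = 0.0116, lost without FHT-1015 4 h replicate 1 or FHT-1015 4 h replicate 3 (adjusted p up to 0.0679)). The groups did not overlap, and the drug libraries differed little from each other. APOLD1 was at 34.5, 33.7 and 22.9 against 15.8, 7.46 and 10.97 CPM (log2 fold change -1.47 ± 0.26 (SE), adjusted p = 0.0167, lost without DMSO 4 h replicate 1, DMSO 4 h replicate 2 or FHT-1015 4 h replicate 3 (adjusted p up to 0.0987)), C1orf115 at 22.5, 17.3 and 14.1 against 8.82, 8.87 and 8.46 CPM (log2 fold change -1.10 ± 0.21 (SE), adjusted p = 0.027, lost in 8 of 12 fits without 1 library (adjusted p up to 0.128, without FHT-1015 4 h replicate 1)), and GEM at 28.5, 34.7 and 47.9 against 12.04, 6.33 and 17.3 CPM (log2 fold change -1.70 ± 0.34 (SE), adjusted p = 0.0357, lost in 10 of 12 fits without 1 library (adjusted p up to 0.156, without FHT-1015 4 h replicate 1)). All 3 were lower in every drug library than in any DMSO library. In MP41 NUAK1 was at 40.6, 50.8 and 41.4 against 17.7, 22.9 and 19.8 CPM at 4 h (log2 fold change -1.13 ± 0.20 (SE), adjusted p = 0.0299, lost in 7 of 12 fits without 1 library (adjusted p up to 0.214, without FHT-1015 4 h replicate 3)), again without overlap.

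At 24 h a rise was called for 69 members in MEL202 and 60 in MP41. In MEL202, 69 of 142 members were called higher, where 8.69% of all genes were, and 1 lower, where 10.1% were. The median was 0.91 on the log2 scale, and 129 members were above 0 (90.8%, against 49.7% of all genes). In MP41, 60 of 135 tested members were called higher, where 17.4% of all genes were, and 3 lower, where 18.7% were. The median there was 0.55, and 111 members were above 0 (82.2%, against 53.6% of all genes). In MEL202 the count of higher members was 86 without FHT-1015 4 h replicate 2, the same 69 among them, where 12% of all genes were called higher, and 43 without DMSO 24 h replicate 1, where 4.78% were. In a fit of the 24 h libraries alone it was 104 in MEL202, where 20.5% of all genes were called higher, and 35 of 134 in MP41, where 9.01% were. The 1 lower member of MEL202 became 2 without DMSO 4 h replicate 1 or 2 or DMSO 24 h replicate 1. The 3 lower members of MP41 became 7 without DMSO 24 h replicate 3, where 24.6% of all genes were called lower. BMERB1, MAN1A1, NRG1, RILPL2, TP53INP1, ULBP3 and ZSCAN23 did not pass the filter on low counts in MP41.

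**Figure D3:**
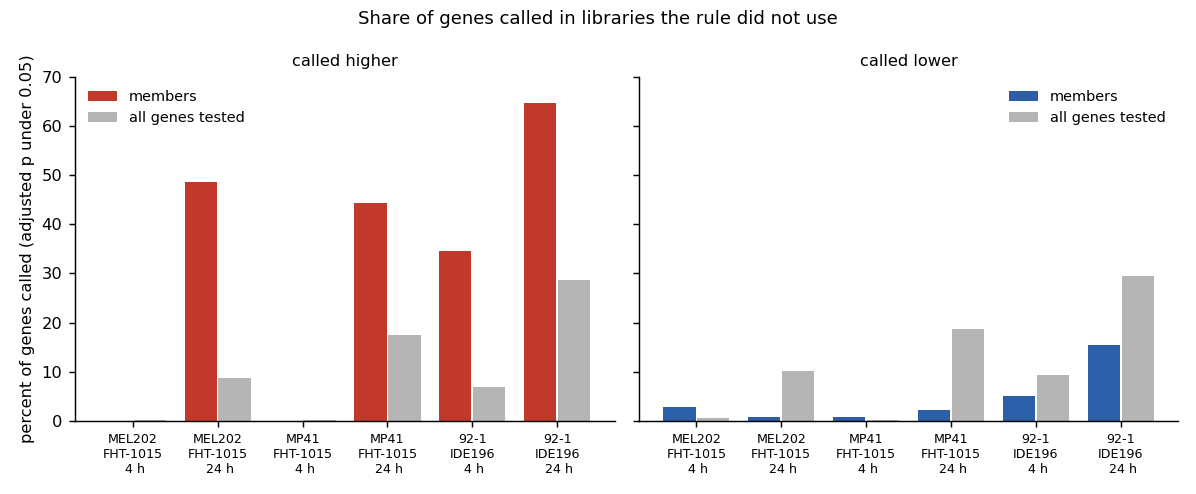
Percent of genes called by edgeR at an adjusted p under 0.05 (vertical axis) among the member genes tested (colour) and among all genes tested (grey), higher at left and lower at right, by comparison (horizontal axis). At 24 h the members' bars for higher stand above the grey bars in MEL202 (69 of 142 members against 8.69%), MP41 (60 of 135 against 17.4%) and 92-1 with IDE196 (92 of 142 against 28.7%).

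As the bars of called genes show, the members exceeded the background on the higher side and fell short of it on the lower side at 24 h in all 3 experiments. Of the 135 members tested in both FHT-1015 lines, 38 were called higher in both (28.1%), where 5.62% of the 14353 genes tested in both were. Another 51 were called higher in 1 line only (37.8%, against 15.4%), and 46 in neither (34.1%, against 78.9%). Without MEL202 FHT-1015 4 h replicate 2 these were 44 (against 7.03% of 14504 genes), 55 (15.9%) and 36 (77.1%). No member was called in opposite directions, and APOLD1 was called lower in both. That 1 line made a call and the other did not is no test of a difference, which is given further on.

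The largest rises shared by both lines were in SCN9A, HSPB7, NDRG1, H3C6, ADRA2A, FAXDC2, DOK5, DNAJC6, ATP1B1 and MYOF. HSPB7 at 24 h was at 48.1, 52.3 and 62.0 CPM in DMSO and 285, 336 and 343 CPM with the drug in MEL202 (log2 fold change 2.54 ± 0.21 (SE), adjusted p = 5.87e-06). In MP41 it was at 98.3, 81.0 and 68.8 against 276, 300.0 and 376 CPM (log2 fold change 1.94 ± 0.28 (SE), adjusted p = 0.000144). NDRG1 was at 32.2, 61.0 and 64.4 against 293, 306 and 322 CPM in MEL202 (log2 fold change 2.52 ± 0.26 (SE), adjusted p = 2.41e-05) and 74.1, 68.7 and 45.2 against 251, 221 and 246 CPM in MP41 (log2 fold change 1.93 ± 0.19 (SE), adjusted p = 5.38e-06). For both genes drug and DMSO were far apart in each line, with the lowest drug library at more than 2-fold the highest DMSO library. SCN9A was near 0 in MP41 DMSO, at 0.4998, 0.114 and 0.397 CPM, and at 2.33, 2.16 and 2.38 CPM with the drug (log2 fold change 2.72 ± 0.58 (SE), adjusted p = 0.00277). In MEL202 it was at 1.35, 2.29 and 1.73 against 8.78, 6.48 and 8.49 CPM (log2 fold change 2.13 ± 0.42 (SE), adjusted p = 0.0029). ADRA2A rose from 16.6, 21.8 and 17.7 to 63.7, 48.2 and 52.8 CPM in MEL202 (log2 fold change 1.53 ± 0.25 (SE), adjusted p = 0.00095) and from 8.70, 8.41 and 6.22 to 62.4, 61.0 and 59.8 CPM in MP41 (log2 fold change 2.98 ± 0.20 (SE), adjusted p = 2.77e-07). With the drug the ranges of the adrenergic receptor in these lines overlapped.

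Other named members were called higher in both lines. The log2 fold changes at 24 h of H3C6 were 1.56 ± 0.27, adjusted p = 0.00113 in MEL202 and 1.73 ± 0.26, adjusted p = 0.000182 in MP41, those of FAXDC2 1.43 ± 0.32, adjusted p = 0.00681 and 1.92 ± 0.21, adjusted p = 1.56e-05, and those of DNAJC6 1.99 ± 0.33, adjusted p = 0.000897 and 1.38 ± 0.19, adjusted p = 0.000115. ATP1B1 rose by 2.39 ± 0.26, adjusted p = 3.45e-05 and 1.36 ± 0.19, adjusted p = 0.000119, SALL2 by 1.63 ± 0.36, adjusted p = 0.00663 and 0.80 ± 0.18, adjusted p = 0.00341, and SHF by 1.26 ± 0.24, adjusted p = 0.00258 and 1.56 ± 0.22, adjusted p = 0.000133. DOK5 gave 1.69 ± 0.22, adjusted p = 0.000162 in MEL202 and 1.41 ± 0.47, adjusted p = 0.0326, lost in 4 of 12 fits without 1 library (adjusted p up to 0.157, without FHT-1015 24 h replicate 2) in MP41. In MP41 its 3 drug libraries, at 0.990, 5.08 and 4.04 CPM, overlapped the DMSO libraries, at 1.40, 0.744 and 1.63 CPM. MYOF gave 1.30 ± 0.41, adjusted p = 0.0418, lost in 7 of 12 fits without 1 library (adjusted p up to 0.161, without DMSO 24 h replicate 1) in MEL202 and 2.19 ± 0.36, adjusted p = 0.000423 in MP41. All these members were also lower at 4 h in 92-1 by the choice, while none of them was called at 4 h in MEL202 or MP41.

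By role, the Hedgehog genes did not move as one in the other lines. GLI1 was at 3.41, 5.87 and 4.36 CPM in DMSO and 14.1, 14.3 and 12.03 CPM with the drug at 24 h in MEL202 (log2 fold change 1.54 ± 0.28 (SE), adjusted p = 0.00193), and at 4.35, 3.49 and 3.40 against 7.28, 10.1 and 7.70 CPM in MP41 (log2 fold change 1.16 ± 0.25 (SE), adjusted p = 0.00283). GLI3, in contrast, was at 7.57, 14.7 and 13.1 against 9.27, 11.49 and 15.2 CPM in MEL202 (log2 fold change -0.0029 ± 0.37 (SE), adjusted p = 0.997), and in MP41 at 17.3, 21.1 and 15.8 against 11.54, 12.5 and 15.3 CPM (log2 fold change -0.46 ± 0.18 (SE), adjusted p = 0.0558). So GLI1 rose in both lines without overlap, and GLI3 was not called in either. GAS1, the co-receptor, was at 7.21, 10.7 and 9.50 against 5.67, 8.21 and 8.59 CPM in MEL202 (log2 fold change -0.31 ± 0.26 (SE), adjusted p = 0.466) and at 26.5, 34.6 and 24.8 against 48.3, 62.1 and 51.1 CPM in MP41 (log2 fold change 0.91 ± 0.18 (SE), adjusted p = 0.0015). Of the other genes of the Hedgehog and Hippo list, 5 of 23 tested were called higher and 3 lower in MEL202, and 7 of 22 higher and 4 lower in MP41. The shares of all genes were 8.69% higher and 10.1% lower in MEL202, and 17.4% and 18.7% in MP41.

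CCN2 was at a far higher level in MEL202 and MP41 than in 92-1, drug or not. In MEL202 at 24 h it was at 52.6, 90.1 and 111 CPM in DMSO and 41.6, 62.4 and 60.4 CPM with the drug (log2 fold change -0.65 ± 0.41 (SE), adjusted p = 0.306). In MP41 it was at 76.7, 35.1 and 56.6 against 145, 127 and 128 CPM (log2 fold change 1.25 ± 0.24 (SE), adjusted p = 0.00128). MP41 DMSO itself was at 225, 264 and 236 CPM at 4 h, so CCN2 fell with time in DMSO (log2 fold change -2.12 ± 0.25 (SE), adjusted p = 0.00445), and the drug libraries were at 175, 278 and 220.2 CPM at 4 h. The part of the DMSO fall in the drug effect of MP41 was not tested. The effect at 24 h differed between the lines (-1.82 ± 0.50, adjusted p = 0.0461, lost in 16 of 24 fits without 1 library (adjusted p up to 0.137, without MP41 DMSO 24 h replicate 2)).

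Among the exchange factors, ARHGEF3 rose at 24 h in MP41 from 15.6, 12.6 and 14.3 to 72.7, 65.1 and 81.5 CPM (log2 fold change 2.37 ± 0.18 (SE), adjusted p = 6.56e-07) and in MEL202 from 4.00, 5.75 and 3.50 to 10.4, 10.1 and 9.38 CPM (log2 fold change 1.15 ± 0.30 (SE), adjusted p = 0.0164, lost in 4 of 12 fits without 1 library (adjusted p up to 0.0878, without DMSO 24 h replicate 3)). PLEKHG5 gave 1.54 ± 0.29, adjusted p = 0.00197 in MEL202 and 0.69 ± 0.18, adjusted p = 0.00987 in MP41. ARHGEF37 gave 1.60 ± 0.50, adjusted p = 0.0382, lost in 6 of 12 fits without 1 library (adjusted p up to 0.136, without FHT-1015 24 h replicate 3) and 0.90 ± 0.24, adjusted p = 0.00914. PLEKHG2 (0.78 ± 0.30, adjusted p = 0.0889 and 0.37 ± 0.22, adjusted p = 0.199) and ARHGEF10L (0.17 ± 0.25, adjusted p = 0.713 and 0.07 ± 0.18, adjusted p = 0.773) were not called, nor was STARD13 (0.21 ± 0.30, adjusted p = 0.702 and 0.15 ± 0.24, adjusted p = 0.65).

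Ion channels in the list other than the members went both ways, with 21 of 107 called higher and 16 lower in MEL202 and 21 of 121 higher and 33 lower in MP41 at 24 h. All genes did so too, with 8.69% called higher and 10.1% lower in MEL202 and 17.4% and 18.7% in MP41. KCNJ2 was at 0.594, 1.47 and 1.70 against 2.37, 3.24 and 3.93 CPM in MEL202 (log2 fold change 1.31 ± 0.80 (SE), adjusted p = 0.297) and at 1.70, 2.06 and 2.73 against 3.96, 3.31 and 4.04 CPM in MP41 (log2 fold change 0.80 ± 0.25 (SE), adjusted p = 0.0244, lost in 4 of 12 fits without 1 library (adjusted p up to 0.102, without DMSO 24 h replicate 1)). Drug and DMSO did not overlap in either line for this channel, although it was called in MP41 alone. CNNM2 gave 1.25 ± 0.31, adjusted p = 0.0127, lost without DMSO 24 h replicate 1 (adjusted p = 0.0613) in MEL202 and 1.04 ± 0.18, adjusted p = 0.000555 in MP41.

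Of the other axon guidance genes, 18 of 59 were called higher and 8 lower in MEL202, and 13 of 54 higher and 15 lower in MP41. Among all genes 8.69% were higher and 10.1% lower in MEL202, and 17.4% and 18.7% in MP41. NTN4 gave 0.71 ± 0.37, adjusted p = 0.21 in MEL202 and 0.96 ± 0.24, adjusted p = 0.00722 in MP41, and SEMA4B 0.87 ± 0.28, adjusted p = 0.0432, lost in 8 of 12 fits without 1 library (adjusted p up to 0.145, without DMSO 24 h replicate 2) and 1.00 ± 0.24, adjusted p = 0.00511. Of the other ZNF, ZSCAN, ZKSCAN and ZFP genes, 45 of 481 were called higher and 10 lower in MEL202, and 146 of 479 higher and 26 lower in MP41. ZKSCAN8 gave 0.55 ± 0.39, adjusted p = 0.368 and 0.76 ± 0.27, adjusted p = 0.0431, lost in 11 of 12 fits without 1 library (adjusted p up to 0.117, without FHT-1015 24 h replicate 1) in MEL202 and MP41, ZNF772 0.75 ± 0.25, adjusted p = 0.0495, lost in 8 of 12 fits without 1 library (adjusted p up to 0.198, without DMSO 24 h replicate 1) and 0.91 ± 0.41, adjusted p = 0.0998, ZNF219 0.49 ± 0.24, adjusted p = 0.19 and 0.50 ± 0.21, adjusted p = 0.074, and ZNF48 0.73 ± 0.27, adjusted p = 0.07 and 0.28 ± 0.21, adjusted p = 0.333.

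Further named members gave these 24 h values in MEL202 and in MP41. ERBB2 gave 1.21 ± 0.30, adjusted p = 0.0117, lost without DMSO 24 h replicate 1 (adjusted p = 0.0562) and 1.18 ± 0.18, adjusted p = 0.00026, GSDME 1.10 ± 0.17, adjusted p = 0.000699 and 1.07 ± 0.17, adjusted p = 0.000287, and SAMD5 1.19 ± 0.31, adjusted p = 0.0161, lost without DMSO 24 h replicate 1, DMSO 24 h replicate 3 or FHT-1015 24 h replicate 2 (adjusted p up to 0.0695) and 0.89 ± 0.26, adjusted p = 0.0165, lost without DMSO 24 h replicate 1 or FHT-1015 24 h replicate 2 (adjusted p up to 0.0759). Those of GPRASP2 were 0.92 ± 0.22, adjusted p = 0.00935, lost without DMSO 24 h replicate 1 (adjusted p = 0.053) and 0.99 ± 0.38, adjusted p = 0.0567, and those of CCDC113 0.81 ± 0.26, adjusted p = 0.0466, lost in 8 of 12 fits without 1 library (adjusted p up to 0.156, without DMSO 24 h replicate 1) and 0.58 ± 0.27, adjusted p = 0.113. Among others called in MP41 alone were ATF7IP (0.67 in MEL202, and 1.61 ± 0.22, adjusted p = 0.000104 in MP41), FMNL1 (0.20, and 1.93 ± 0.41, adjusted p = 0.00272) and AC015922.2 (0.41, and 0.46 ± 0.16, adjusted p = 0.0332, lost in 10 of 12 fits without 1 library (adjusted p up to 0.12, without DMSO 24 h replicate 1)). PGPEP1 was called higher in MEL202 alone (1.12 ± 0.26, adjusted p = 0.00723, and 0.28 in MP41), as was TPBG (0.86 ± 0.18, adjusted p = 0.00406, and 0.37). Neither line made a call for LRIG1 (-0.10 and -0.16), IER3 (-0.11 and -0.28), BCL2L11 (0.24 and 0.57), CORO2A (0.95 and -0.09) or GEM (0.10 and 0.22).

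The 3 members called lower at 24 h ran against the pattern of 92-1. APOLD1 was at 39.0, 39.7 and 38 CPM in DMSO and 6.36, 6.31 and 6.63 CPM with the drug in MEL202 (log2 fold change -2.62 ± 0.27 (SE), adjusted p = 2.41e-05). In MP41 it was at 68.6, 60.9 and 97.9 against 10.6, 6.57 and 10.03 CPM (log2 fold change -3.06 ± 0.27 (SE), adjusted p = 2.64e-06). Every drug library of APOLD1 lay below every DMSO library in both lines, whereas in 92-1 the late drug libraries lay above DMSO, which was at 5.13 CPM or less. APOLD1 shares exons on its strand with DDX47, so reads in them could be held as ambiguous and counted for neither gene. In MP41 C1orf115 was at 66.7, 79.8 and 59.9 against 30.1, 37.2 and 39.5 CPM (log2 fold change -0.95 ± 0.15 (SE), adjusted p = 0.000318) and ADAM19 at 9.05, 10.9 and 5.91 against 5.59, 4.87 and 3.57 CPM (log2 fold change -0.88 ± 0.29 (SE), adjusted p = 0.0315, lost in 4 of 12 fits without 1 library (adjusted p up to 0.126, without FHT-1015 24 h replicate 3)).

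**Figure D4:**
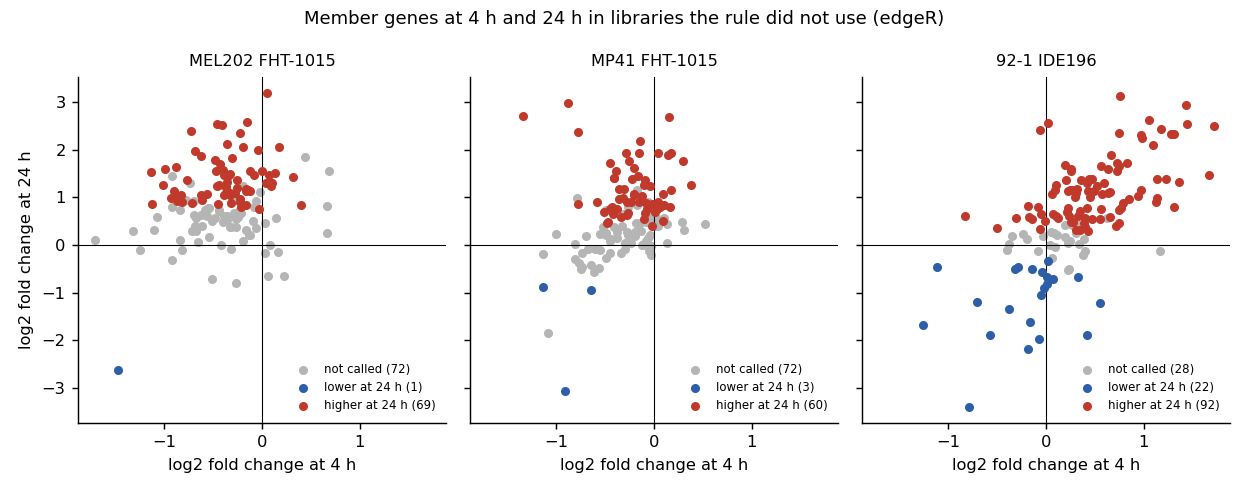
Log2 fold change of each member gene at 4 h (horizontal axis) and at 24 h (vertical axis) in MEL202 with FHT-1015, MP41 with FHT-1015 and 92-1 with IDE196, with 1 point per gene coloured by its edgeR call at 24 h (red higher, blue lower, grey not called). In MEL202 113 of 142 genes and in MP41 86 of 135 lie left of 0 and above 0, while with IDE196 94 of 142 lie right of 0 and above 0 (66.2%, against 37.7% of all genes tested).

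The change between the times was tested directly as the 24 h effect minus the 4 h effect. In MEL202 it was called higher for 56 of 142 members, where 3% of all genes were, and lower for 0, where 3.9% were, with a median of 1.31. At an unadjusted p under 0.05, 98 were higher, where 9.94% of all genes were, and 1 lower, where 10.6% were. DESeq2 called 1 lower, where it called 6.13% of all genes lower. In MP41 it was called higher for 50 of 135, where 7.73% of all genes were, and lower for 1 (APOLD1), where 10.9% were, with a median of 0.74. In the plot of 4 h against 24 h changes, 113 members in MEL202 were below 0 at 4 h and above 0 at 24 h (79.6%, against 23.4% of all genes tested there), and 86 in MP41 (63.7%, against 25.4%). In both lines that held for 71 of the 135 tested in both (52.6%, against 8.88% of all such genes). Without MEL202 FHT-1015 4 h replicate 2 it held for 121 in MEL202 (85.2%, against 25%) and for 76 in both lines (56.3%, against 8.74%). The MEL202 count of members called higher on the change was 75 without FHT-1015 4 h replicate 2, where 4.54% of all genes were, with 1 lower, where 5.01% were, and at an unadjusted p under 0.05 it was 110, where 12.4% were. It was 35 without DMSO 24 h replicate 1 or 3, 34 without FHT-1015 24 h replicate 1, 33 without FHT-1015 24 h replicate 2 and 32 without FHT-1015 24 h replicate 3, with 1.26% to 1.51% of all genes called higher in these 5 fits.

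Large shifts between the times were seen in genes that also rose at 24 h. In MEL202 the difference was 3.12 ± 0.35, adjusted p = 0.00032 for ATP1B1, 3.00 ± 0.29, adjusted p = 0.000116 for HSPB7, 2.92 ± 0.35, adjusted p = 0.000428 for NDRG1 and 2.66 ± 0.36, adjusted p = 0.000851 for ADRA2A. In MP41 it was 3.85 ± 0.28, adjusted p = 4.59e-06 for ADRA2A, 3.14 ± 0.25, adjusted p = 8.2e-06 for ARHGEF3 and 4.05 ± 0.95, adjusted p = 0.00997 for SCN9A. GEM was called on this difference in both lines without a call at 24 h: its difference was 1.81 ± 0.47, adjusted p = 0.0329, lost in 8 of 12 fits without 1 library (adjusted p up to 0.0984, without FHT-1015 24 h replicate 3) in MEL202 and 1.22 ± 0.28, adjusted p = 0.00795 in MP41. In MEL202 GEM at 24 h was at 34.0, 41.8 and 57.1 CPM in DMSO and 40.0, 49.8 and 56.1 CPM with the drug, so the groups overlapped. TPBG had 1.98 ± 0.25, adjusted p = 0.00058 in MEL202 and 0.78 ± 0.25, adjusted p = 0.0442, lost in 9 of 12 fits without 1 library (adjusted p up to 0.14, without FHT-1015 4 h replicate 1) in MP41.

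Applied to the other experiments as a description, the whole rule of size and non-overlap was met in MEL202 by 11 of 137 members at 2 CPM or more, against 0.33% of all such genes. These were ATP1B1, SPEG, TENT5A, TPBG, ATOSB, ADRA2A, RCOR2, SHF, CCDC102A, MIEF2 and GPRASP2, named after their values were seen. Without FHT-1015 4 h replicate 2 the rule was met there by 16 members, 8 of the 11 among them, against 0.651% of such genes. In MP41 it was met by 2 of 127 (ARHGEF3 and ADRA2A), against 0.189%, and with IDE196 by 1 of 137 (TPBG), against 0.0423%. ADRA2A was thus the member that met the rule in all 3 lines. Its 4 h levels were 19.0, 18.7 and 12.7 CPM in DMSO against 7.55, 10.5 and 5.73 CPM with FHT-1015 in MEL202 and 9.14, 10.3 and 13.1 against 4.65, 6.17 and 6.72 CPM in MP41. At 4 h the edgeR test did not call it in either line (-1.14 ± 0.26, adjusted p = 0.0718 and -0.88 ± 0.20, adjusted p = 0.106).

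The lines differed from each other for some members. A contrast of the 24 h effect in MEL202 minus that in MP41, added after the data were seen and fitted over the 24 libraries of both lines, was called higher for 13 members, where 2% of 17478 genes were, and lower for 3, where 1.03% were. Leaving out 1 library at a time gave 24 in place of the 13 without MP41 DMSO 24 h replicate 3 (3.61% of all genes) and 16 without MEL202 FHT-1015 4 h replicate 2 (2.62%). It gave 5 without MEL202 DMSO 24 h replicate 1 and without FHT-1015 24 h replicate 2 or 3 of either line. It gave 6 without MEL202 DMSO 24 h replicate 2, MP41 DMSO 24 h replicate 2 or FHT-1015 24 h replicate 1 of either line. It gave 7 without MEL202 DMSO 24 h replicate 3, MP41 DMSO 24 h replicate 1, any MP41 DMSO library of 4 h or MP41 FHT-1015 4 h replicate 3, and 8 without MP41 FHT-1015 4 h replicate 2. The 3 became 5 without MEL202 DMSO 4 h replicate 1 or 3 or FHT-1015 4 h replicate 2. Shares of all genes are given only for the fits with 24 and 16 members, so the other counts lack that comparison. Each of the 16 is labelled in the plot of both lines at 24 h.

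**Figure D5:**
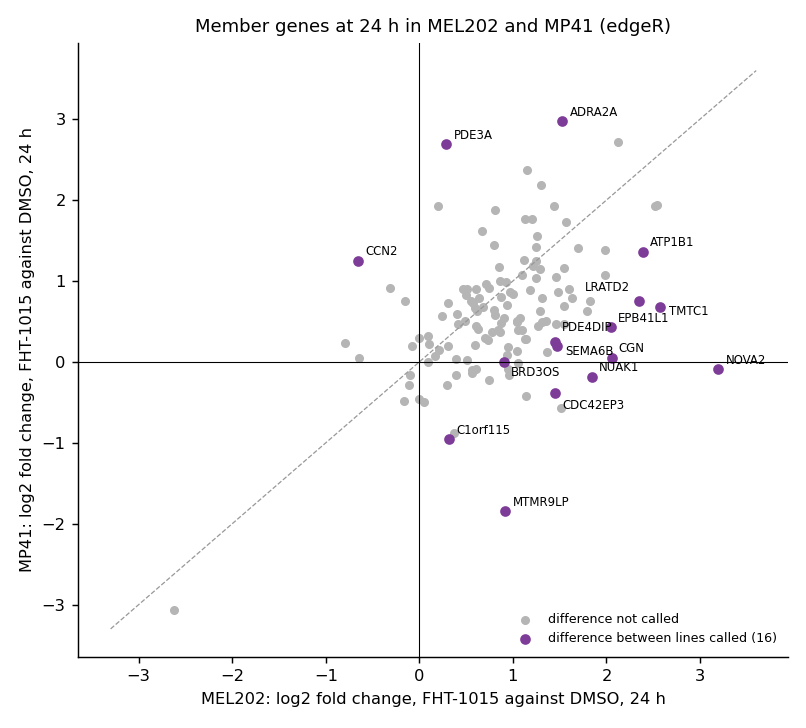
Log2 fold change of each member gene with FHT-1015 against DMSO at 24 h in MEL202 (horizontal axis) and in MP41 (vertical axis), 1 point per gene tested in both; the dashed line marks equal change, and purple points with names are the 16 genes whose effect differed between the lines by edgeR. NOVA2 is at 3.20 in MEL202 and -0.09 in MP41, and PDE3A at 0.29 and 2.69.

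Among members with a larger effect in MEL202, CGN was at 0.951, 1.52 and 1.70 CPM in DMSO and 6.07, 5.01 and 6.68 CPM with the drug in MEL202 (log2 fold change 2.06 ± 0.57 (SE), adjusted p = 0.0226, lost in 5 of 12 fits without 1 library (adjusted p up to 0.097, without DMSO 24 h replicate 1)), and at 22.4, 29.9 and 19.9 against 23.0, 26.2 and 25.6 CPM in MP41 (log2 fold change 0.05 ± 0.18 (SE), adjusted p = 0.85). The tight junction gene was thus higher in MP41 with either treatment, and its rise was called in MEL202 alone. The difference of the effects was 2.09 ± 0.57, adjusted p = 0.044, lost in 17 of 24 fits without 1 library (adjusted p up to 0.142, without MEL202 DMSO 24 h replicate 1). LRATD2 was at 9.35, 14.7 and 15.3 against 63.6, 73.1 and 67.1 CPM in MEL202 (log2 fold change 2.34 ± 0.26 (SE), adjusted p = 4.39e-05) and 186, 179 and 253 against 297, 328 and 412 CPM in MP41 (log2 fold change 0.75 ± 0.21 (SE), adjusted p = 0.0154, lost without DMSO 24 h replicate 1 or FHT-1015 24 h replicate 3 (adjusted p up to 0.0709)). Its difference was 1.68 ± 0.33, adjusted p = 0.00472, with a rise in both lines. SEMA6B rose in MEL202 from 6.18, 8.04 and 10.6 to 21.1, 24.0 and 24.8 CPM (log2 fold change 1.47 ± 0.27 (SE), adjusted p = 0.00214), and in MP41 it was at 45.7, 74.96 and 40.4 against 66.3, 65.7 and 52.5 CPM with overlap (log2 fold change 0.20 ± 0.20 (SE), adjusted p = 0.47).

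With IDE196, 109 of the 142 genes were above 0 at 4 h (76.8%, against 52.1% of all 15437 genes tested). At that time 49 were called higher, where 6.89% of all genes were, and 7 lower, where 9.3% were, with a median of 0.31. At 24 h, 92 were called higher, where 28.7% of all genes were, and 22 lower, where 29.4% were, with a median of 0.61. The 24 h effect minus the 4 h effect was called higher for 47, where 13.5% of all genes were, and lower for 18, where 17.2% were. At both times 45 were higher, where 5.68% of all genes were, and 5 lower, where 7.96% were. Lower and then higher were 2 (TPBG and GLI3), where 0.207% of all genes were, and 1 (PKIA) was higher and then lower, where 0.149% were. Another 25 were called at neither time, where 39.7% of all genes were. The IDE196 libraries have their own DMSO, so they share no control with the FHT-1015 libraries.

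The largest rises with IDE196 at 24 h were in ARHGEF37, CORO2A, NDRG1, SAMD5 and CCN2. ARHGEF37 was at 1.13, 1.76 and 1.39 CPM in DMSO and 11.7, 12.5 and 14.5 CPM with IDE196 at 24 h (log2 fold change 3.13 ± 0.24 (SE), adjusted p = 5.55e-09). CORO2A was at 3.603, 3.57 and 2.90 against 21.0, 24.1 and 34.8 CPM (log2 fold change 2.94 ± 0.22 (SE), adjusted p = 5.82e-09). NDRG1 was at 21.6, 19.4 and 22.7 against 50.02, 39.6 and 42.5 CPM at 4 h (log2 fold change 1.05 ± 0.12 (SE), adjusted p = 1.24e-05) and 14.4, 18.7 and 21.1 against 122, 109 and 113 CPM at 24 h (log2 fold change 2.63 ± 0.13 (SE), adjusted p = 3.38e-11). These drug libraries stood far above DMSO with no overlap. SAMD5 was at 6.11, 5.30 and 4.71 against 6.71, 6.305 and 3.28 CPM at 4 h (log2 fold change 0.02 ± 0.22 (SE), adjusted p = 0.971) and 4.95, 5.74 and 3.46 against 29.5, 26.4 and 30.2 CPM at 24 h (log2 fold change 2.56 ± 0.21 (SE), adjusted p = 1.25e-08), so it moved only late. CCN2 was at 4.14, 4.40 and 3.34 against 12.8, 9.01 and 10.5 CPM at 4 h (log2 fold change 1.44 ± 0.18 (SE), adjusted p = 2.78e-05) and 2.26, 2.50 and 2.38 against 12.9, 17.8 and 11.9 CPM at 24 h (log2 fold change 2.53 ± 0.19 (SE), adjusted p = 6.63e-09).

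At 4 h the largest rises with IDE196 were in STARD13, DNAJC6 and CCN2. STARD13 was at 5.48, 6.52 and 8.35 CPM in DMSO and 19.9, 23.1 and 24.2 CPM with IDE196 at 4 h (log2 fold change 1.71 ± 0.16 (SE), adjusted p = 1.34e-06), and at 6.82, 6.44 and 9.62 against 41.1, 44.8 and 48.1 CPM at 24 h (log2 fold change 2.50 ± 0.16 (SE), adjusted p = 1.05e-09). DNAJC6 was at 6.28, 6.17 and 6.08 against 21.1, 17.0 and 20.7 CPM at 4 h (log2 fold change 1.67 ± 0.15 (SE), adjusted p = 5.99e-07) and gave 1.48 ± 0.15, adjusted p = 2.11e-07 at 24 h. Both were separated from DMSO at both times. GAS1 rose from 14.8, 11.6 and 12.2 to 54.3, 50.4 and 42.3 CPM at 24 h (log2 fold change 1.88 ± 0.17 (SE), adjusted p = 6.69e-08). Of the other Hedgehog and Hippo genes, 9 of 20 were called higher and 2 lower at 24 h, where 28.7% and 29.4% of all genes were.

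The largest falls with IDE196 at 24 h were in ADRA2A, SCN9A, DOK5, KCNJ2 and CNNM2, which by the choice were all higher with FHT-1015 at that time. ADRA2A was at 120.0, 179 and 161 CPM in DMSO and 57.6, 105 and 104 CPM with IDE196 at 4 h (log2 fold change -0.79 ± 0.20 (SE), adjusted p = 0.0119, lost without DMSO 4 h replicate 5 (adjusted p = 0.0582)). At 24 h it was at 172, 212 and 252 against 17.5, 23.9 and 20.5 CPM (log2 fold change -3.40 ± 0.23 (SE), adjusted p = 1.35e-09). SCN9A was at 2.39, 2.04 and 2.21 against 0.696, 0.340 and 0.449 CPM at 24 h (log2 fold change -2.17 ± 0.36 (SE), adjusted p = 4.83e-05), so this channel was below 1 CPM in every IDE196 library of 24 h. KCNJ2 was at 8.38, 5.22 and 6.34 against 10.98, 9.01 and 6.66 CPM at 4 h (log2 fold change 0.42 ± 0.19 (SE), adjusted p = 0.152) and 6.29, 5.51 and 6.02 against 1.74, 1.80 and 1.34 CPM at 24 h (log2 fold change -1.90 ± 0.23 (SE), adjusted p = 1.33e-06). CNNM2 was at 99.4, 104 and 116 against 25.9, 30.7 and 32.6 CPM (log2 fold change -1.89 ± 0.11 (SE), adjusted p = 4.86e-10). DOK5 was at 17.7, 31.6 and 37.1 against 5.44, 9.22 and 8.13 CPM (log2 fold change -1.97 ± 0.34 (SE), adjusted p = 7.26e-05). HSPB7 (-1.62 ± 0.16, adjusted p = 1.89e-07), ATP1B1 (-0.91 ± 0.14, adjusted p = 2.7e-05) and MYOF (-1.34 ± 0.19, adjusted p = 1.02e-05) were lower too. The DMSO levels of 92-1 differed between the 2 experiments for several of these genes. In the DMSO libraries beside FHT-1015 at 24 h KCNJ2 was at 1.01, 1.63 and 2.99 CPM, CNNM2 at 26.6, 30.2 and 47.8 CPM and DOK5 at 7.19, 10.8 and 12.3 CPM, each below every DMSO library beside IDE196 at that time. ADRA2A was there at 108, 129 and 153 CPM, also below every DMSO library beside IDE196 at 24 h. SCN9A was at 1.76, 1.94 and 2.14 CPM, which overlapped those libraries. The part of these starting levels in the opposite directions was not tested. For each of the 8 genes, all 3 IDE196 libraries of 24 h lay below all 3 DMSO libraries.

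Of the 38 members called higher at 24 h in both MEL202 and MP41 with FHT-1015, 25 were called higher with IDE196 in 92-1 at 24 h (65.8%) and 9 lower (23.7%). Of all 764 genes called higher in both lines and tested with IDE196, 65.8% were called higher and 9.95% lower, and of all 142 members 64.8% and 15.5%. The 9 were ADRA2A, ATP1B1, CNNM2, DOK5, GSDME, HSPB7, KLHL13, MYOF and SCN9A. The 2 drugs were given to different lines in these calls and were not tested against each other. NDRG1, FAXDC2 (2.34 ± 0.20, adjusted p = 2.7e-08), SALL2 (1.31 ± 0.20, adjusted p = 2.43e-05) and H3C6 (1.65 ± 0.23, adjusted p = 6.81e-06) were raised by both drugs.

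Early falls with IDE196 were called for 7 members. IER3 was at 1.56, 2.83 and 2.14 CPM in DMSO and 1.11, 1.20 and 0.410 CPM with IDE196 at 4 h (log2 fold change -1.26 ± 0.36 (SE), adjusted p = 0.0222, lost without DMSO 4 h replicate 5 or IDE196 4 h replicate 3 (adjusted p up to 0.111)). BCL2L11 was at 11.1, 11.8 and 14.3 against 5.10, 5.55 and 6.66 CPM at 4 h (log2 fold change -1.11 ± 0.17 (SE), adjusted p = 0.000162) and 9.77, 12.6 and 12.8 against 10.1, 8.74 and 7.51 CPM at 24 h (log2 fold change -0.45 ± 0.16 (SE), adjusted p = 0.0246, lost in 4 of 12 fits without 1 library (adjusted p up to 0.104, without IDE196 24 h replicate 3)). TPBG was at 19.2, 16.6 and 16.1 against 10.7, 8.01 and 10.6 CPM at 4 h (log2 fold change -0.82 ± 0.15 (SE), adjusted p = 0.000662) and 14.9, 13.0 and 18.5 against 25.9, 25.4 and 21.1 CPM at 24 h (log2 fold change 0.60 ± 0.14 (SE), adjusted p = 0.00137). GLI3 was called lower at 4 h (-0.50 ± 0.13, adjusted p = 0.01, lost without IDE196 4 h replicate 2 (adjusted p = 0.059)) and higher at 24 h (0.36 ± 0.12, adjusted p = 0.0183, lost without DMSO 24 h replicate 4, IDE196 24 h replicate 1 or IDE196 24 h replicate 3 (adjusted p up to 0.127)). TPBG and GLI3 were the 2 members called lower and then higher with IDE196. CGN was higher early and not late: it was at 5.84, 3.85 and 3.81 against 11.9, 10.3 and 7.99 CPM at 4 h (log2 fold change 1.17 ± 0.19 (SE), adjusted p = 0.000382) and at 8.42, 6.81 and 9.10 against 7.14, 6.41 and 9.47 CPM at 24 h (log2 fold change -0.13 ± 0.19 (SE), adjusted p = 0.576). APOLD1, lower with FHT-1015 in the other lines, was higher with IDE196 in 92-1 at 4 h (1.36 ± 0.24, adjusted p = 0.000558) and 24 h (1.33 ± 0.23, adjusted p = 8.52e-05).

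Change over time in DMSO was tested in the libraries that the choice did not use. Between 4 h and 24 h in the DMSO libraries beside IDE196, 0 members were called higher, where 0.162% of all genes were, and 1 (CREB5) lower, where 0.104% were. By DESeq2 1 was higher, where 0.868% of all genes were, and 3 lower, where 0.939% were. At an unadjusted p under 0.05, 7 were higher, where 6.73% were, and 9 lower, where 7.61% were. The call for CREB5 was lost without DMSO 4 h replicate 4 or any DMSO library of 24 h, and 1 other member was called higher without DMSO 4 h replicate 4. In MEL202 DMSO 0 were called either way, as for all genes (0% higher and 0% lower). At an unadjusted p under 0.05, 0 were higher, where 1.02% of all genes were, and 1 lower, where 1.05% were. In MP41 DMSO 3 were higher (FAXDC2, PGPEP1 and NOVA2), where 1.6% of all genes were, and 6 lower (CCN2, DNAJC6, SAMD5, CREB5, NUAK1 and KLF5), where 0.997% were. These counts were 58 and 26 without MP41 DMSO 24 h replicate 3, where 22.1% and 20.5% of all genes were called, and 0 and 0 in a fit of the DMSO libraries alone, where 0% and 0% were. They were 22 and 18 by DESeq2, which called 6.21% of all genes higher and 5.32% lower. At an unadjusted p under 0.05, 35 were higher, where 15.1% of all genes were, and 23 lower, where 14.7% were. The 3 became 5 without FHT-1015 4 h replicate 1 and 1 without FHT-1015 24 h replicate 1, and the shares of all genes there are not given. Apart from FHT-1015 4 h replicate 3 and DMSO 24 h replicate 3 (58, as above), leaving out any other library gave 0. The 6 became 1 without DMSO 4 h replicate 1 or 3, 2 without DMSO 4 h replicate 2 or DMSO 24 h replicate 1, and 3 without FHT-1015 24 h replicate 2. The calls over time in MP41 DMSO thus depended on the libraries fitted, and the part of DMSO in the MP41 change between the times was not tested.

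Of the 142, 137 were protein-coding, 3 lincRNA and 2 transcribed pseudogenes. The 137 had a median summed exon length of 6499 bases, against 5331 for all 11180 protein-coding genes at 2 CPM or more and 4658 for the 70 that rose and then fell. The median gene span was 36908, 34591 and 28122 bases in the same order. The chromosomes with most members were 1 (15), 19 (14), 12 (13), 6 (12) and 17 (11). CGN lies on the plus strand of chromosome 1 at 151510510 to 151538692, ATP1B1 on that strand at 169105697 to 169132722, GLI1 on the plus strand of chromosome 12 at 57460135 to 57472262, NTN4 on its minus strand at 95657807 to 95791152, and KCNJ2 on the plus strand of chromosome 17 at 70168673 to 70180048 (GRCh38). There were 17 neighbouring pairs under 1 Mb apart, such as FMNL1 and ARHGAP27 with a gap of 146582 bases, and CYFIP2 and ADAM19 overlapped at their ends. An exon of 57 members overlapped an exon of another gene, 47 on the opposite strand and 15 on the same strand. The counts ignore strand, so reads in overlapping exons of a pair of genes cannot be assigned to either. Examples are KCNJ2 and KCNJ2-AS1, ATP1B1 and NME7, CNNM2 and NT5C2, LRIG1 and SLC25A26, LRATD2 and PCAT1, and GLI1 and ARHGAP9. The files hold ambiguous reads apart from the gene rows (9.35% to 11.8% of reads), so an overlap may lower both counts.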

How the data were processed

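Gene counts were deposited by the authors as read counts per gene, with unstranded and stranded columns, and hg38 and limma are named in the submitters' processing notes. The aligner and the annotation are not given in the sources used here. The unstranded counts were used, since the stranded columns held near equal shares. Counts were divided by each library's total over gene rows to give CPM, computed here from the deposited counts, and the ratio used log2 of CPM with 0.5 added. Positions and exons were taken from GENCODE 29 (GRCh38) and current symbols from the reference name table, both by unversioned identifier.

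The members and the 26 gene lists were chosen with earlier results of these data known. The labels call the replicates biological without saying that they were separate cultures, so p-values measure only the spread between these samples. For MEL202, MP41 and IDE196 the counts were fitted per experiment with edgeR 4.0.16 (quasi-likelihood, TMM, filterByExpr, 4 groups) in R 4.3.3, with Benjamini-Hochberg adjustment over all genes and a call at an adjusted p under 0.05. The fit was tested on simulated data. Alternatives were other scalings, no filter, both stranded columns, DESeq2 1.42.0, the compared libraries alone, a replicate block and leaving out each library. The MEL202 against MP41 difference, its leave-one-out fits and the sign, rule and both-line counts without MEL202 FHT-1015 4 h replicate 2 were added after seeing the data.

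Named were the 20 protein-coding members with the largest smaller change, the 10 with the largest shared 24 h rise, those called at 4 h, those at the extremes with IDE196, those next to the limits, up to 4 members of each list with 3 or more, and SOX10, MITF, SMARCA4 and SMARCA2. Promoters (RefSeq, GRCh38.p14) matched 108 of 142 members, or 76.1%, so any comparison of motif shares over the members is void. The E-box, TATA and TEAD motifs of the text were searched on both strands; M-box, SOX, AP-1, CRE and CCAAT motifs were also searched and are not used here. Some members and 1 gene list are not reported here.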

Additional observations from a re-analysis of the deposited data

Results flagged for a closer look

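The 24 h effect of FHT-1015 differed between MEL202 and MP41 for 16 of the 142 genes, by edgeR's quasi-likelihood test of the difference itself over the 24 libraries of both lines (adjusted p under 0.05 over all 17478 genes). The difference was above 0 for 13, where 2% of all genes were called so, and below 0 for 3, where 1.03% were, and leaving out 1 library at a time gave 5 to 24 and 2 to 5. The effect was more positive in MEL202 for CGN, at 2.09 ± 0.57, and for NUAK1, at 2.10 ± 0.55, adjusted p = 0.0348, lost in 14 of 24 fits without 1 library (adjusted p up to 0.126, without MEL202 DMSO 24 h replicate 1). NUAK1 was at 0.396, 0.645 and 0.928 CPM in DMSO and 2.22, 1.98 and 3.09 CPM with the drug in MEL202, and at 30.8, 24.1 and 20.9 against 25.6, 18.1 and 23.0 CPM in MP41. CDC42EP3, the CDC42 effector, differed by 1.91 ± 0.45, adjusted p = 0.0189, lost in 8 of 24 fits without 1 library (adjusted p up to 0.0835, without MP41 FHT-1015 24 h replicate 2): it was at 1.62, 1.82 and 2.01 against 4.74, 5.01 and 5.45 CPM in MEL202 and at 19.2, 19.9 and 26.7 against 19.98, 14.2 and 16.2 CPM in MP41. LRATD2 differed by 1.68 ± 0.33, adjusted p = 0.00472, SEMA6B by 1.36 ± 0.35, adjusted p = 0.0324, lost in 14 of 24 fits without 1 library (adjusted p up to 0.118, without MP41 DMSO 24 h replicate 2) and ATP1B1 by 1.11 ± 0.31, adjusted p = 0.0491, lost in 21 of 24 fits without 1 library (adjusted p up to 0.19, without MEL202 FHT-1015 24 h replicate 1). For C1orf115 the difference of 1.36 ± 0.25, adjusted p = 0.0023 stood beside a fall in MP41 (-0.95 ± 0.15, adjusted p = 0.000318), while MEL202 gave 0.32 ± 0.20, adjusted p = 0.315.

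The effect was more positive in MP41 for CCN2, with a difference of -1.82 ± 0.50, adjusted p = 0.0461, lost in 16 of 24 fits without 1 library (adjusted p up to 0.137, without MP41 DMSO 24 h replicate 2), and for ADRA2A, with -1.36 ± 0.32, adjusted p = 0.0184. For CCN2 the DMSO level of MP41 fell between 4 h and 24 h, and the part of that in the difference was not tested. The other 7 of the 16 genes were NOVA2 (3.40), MTMR9LP (2.85), TMTC1 (1.99), EPB41L1 (1.71), PDE4DIP (1.29), BRD3OS (1.00) and PDE3A (-2.31), named after their values were seen. PDE4DIP has near-identical copies, so its counts are uncertain.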

How the results depend on the processing

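The set of 142 became 291 genes with a limit of 0.4, 56 with 0.8 and 84 with a pseudocount of 2 CPM, and 125 to 172 without 1 library. DESeq2 gave 14 members lower at 4 h in MEL202, 10 lower at 4 h and 5 lower at 24 h in MP41, 1 lower on the MEL202 change between times, 22 higher and 18 lower over time in MP41 DMSO, and 1 higher and 3 lower in the DMSO beside IDE196. Without the filter on low counts these were 8 lower at 4 h in MEL202, 6 lower at 4 h in MP41, 19 higher and 16 lower in MP41 DMSO, and 3 higher and 5 lower in the DMSO beside IDE196. The shares of all genes called without the filter are not given here, so these counts lack that comparison. Fitting the compared libraries alone gave 0 lower at 4 h, 104 higher and 3 lower at 24 h in MEL202, 16 lower at 4 h and 35 higher at 24 h in MP41, and 0 higher and 0 lower in MP41 DMSO. Library size alone gave 5 higher in MP41 DMSO.

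Leaving out 1 library, MEL202 gave 0 higher and 1 to 7 lower at 4 h, 43 to 86 higher and 1 to 2 lower at 24 h, 32 to 75 higher and 0 to 1 lower on the change between times, and 0 in DMSO. MP41 gave 0 higher and 0 to 9 lower at 4 h, 44 to 69 higher and 2 to 7 lower at 24 h, 34 to 67 higher and 1 lower on the change, and 0 to 58 higher and 1 to 26 lower in DMSO. IDE196 gave 38 to 49 higher and 6 to 8 lower at 4 h, 81 to 92 and 18 to 23 at 24 h, 40 to 49 and 14 to 18 on the change, and 0 to 1 and 0 to 1 in DMSO. The line difference gave 5 to 24 higher and 2 to 5 lower. The cause was not tested in any of these.

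With the replicate block, MEL202 gave 0 higher and 3 lower at 4 h, 68 and 1 at 24 h, 52 and 0 on the change and 0 and 0 in DMSO, and MP41 gave 0 and 1, 59 and 3, 48 and 1, and 3 and 8. For the blocked fits of either line the shares of all genes called are not given here. Deviations of same-numbered libraries had correlations of -0.287 to 0.469 in these lines, so the numbers were not taken to pair the samples. The IDE196 and DMSO arms share no replicate number, so its 4 h and 24 h effects have no paired fit. A replicate block of the numbers within each arm, added after seeing the data, gave 49 higher and 20 lower on the change with IDE196 and 0 and 1 in its DMSO, with correlations of -0.038 to 0.077 between the times.

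Of 702 values of named genes 237 were called, 76 of which lost the call in at least 1 leave-one-out fit and 39 in at least 1 other alternative; none reversed while called. The line difference was refitted only without single libraries. With few reads behind genes near 2 CPM and a biological coefficient of variation of 0.294 in MEL202, moderate changes at 4 h could be missed.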
